A study of Mus musculus with 2 samples.

Results

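Keratins and genes of the ductular reaction were examined in the livers of western diet-fed mice with and without hepatocyte Lpcat3. The set held 9 genes, Krt7, Krt8, Krt18, Krt19, Krt23, Epcam, Sox9, Cd24a and Tff3, and every probe set annotated to these symbols was taken, 16 of the 45101 on the array; the array covers 18193 genes in all. The L-Lpcat3 KO group carried Lpcat3fl/fl and the Albumin-Cre transgene, whose albumin promoter is active in hepatocytes and their fetal precursors. The paper proposes that liver cells without the transgene, such as Kupffer and endothelial cells, still express Lpcat3. Whether bile duct cells keep the gene was not tested. The control group carried the same Lpcat3fl/fl alleles without Cre. Each group was 1 Affymetrix whole-genome mouse array of liver RNA pooled from 5 males aged 16 weeks, put on western diet at 7 weeks, kept on it for 9 weeks, and killed after a 6 hr fast. A pool is a single sample, so no difference below has a replicate check and no p-value is given.

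Keratins are the intermediate filament proteins of epithelial cells, and a filament always pairs a type I with a type II keratin. Hepatocytes make a simple pair, Krt8 (type II) with Krt18 (type I), whereas the cells of the bile ducts, cholangiocytes, add Krt7 and Krt19 and carry the adhesion protein Epcam and the transcription factor Sox9. In chronic liver injury small ducts and progenitor-like cells expand around the portal tracts, a picture called the ductular reaction, in which Krt7, Krt19, Krt23, Epcam, Sox9 and Cd24 are commonly used as markers.

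Signals are MAS5 intensities on a linear scale, and each array had a trimmed mean of 500. Values under the median of all values, 86.6, lie in the range where background dominates and were raised to that floor, and a gene counted as measured unless its brightest probe set stayed under the floor on both arrays. Where only 1 side reached it, the fold is given as a minimum ("at least"). Of 12290 measured genes, 332 were higher by 2-fold or more in L-Lpcat3 KO liver and 86 lower by as much, which is 2.70% and 0.70% of them; with ratios taken relative to hepatocyte markers these counts were 503 and 50. The pooled SD of the log2 ratio among probe sets of the same gene, 0.29 over 4476 genes, is the only estimate of measurement error in these data. It leaves out the spread between mice and any error that the probe sets of an array share. Lpcat3 itself had a signal of 2198 in L-Lpcat3 KO liver and 5173 in control liver, a log2 ratio of -1.23, on its single probe set. Whether that probe set lies within the deleted part was not stated in the methods, which limits its use as a check of the genotype labels.

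Of the 9 genes, 7 were measured. Cd24a was higher by 2-fold and Tff3 lower by 2-fold, 1 gene in each direction, and the other 5 measured genes lay within 2-fold. The median log2 ratio of the 7 was 0.35, beside 0.01 for all measured genes. Krt8, Krt18 and Krt23 were moderately higher in L-Lpcat3 KO liver, Epcam and Sox9 were close to equal, and the duct keratins Krt7 and Krt19 were under the floor on both arrays.

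**Figure D1:**
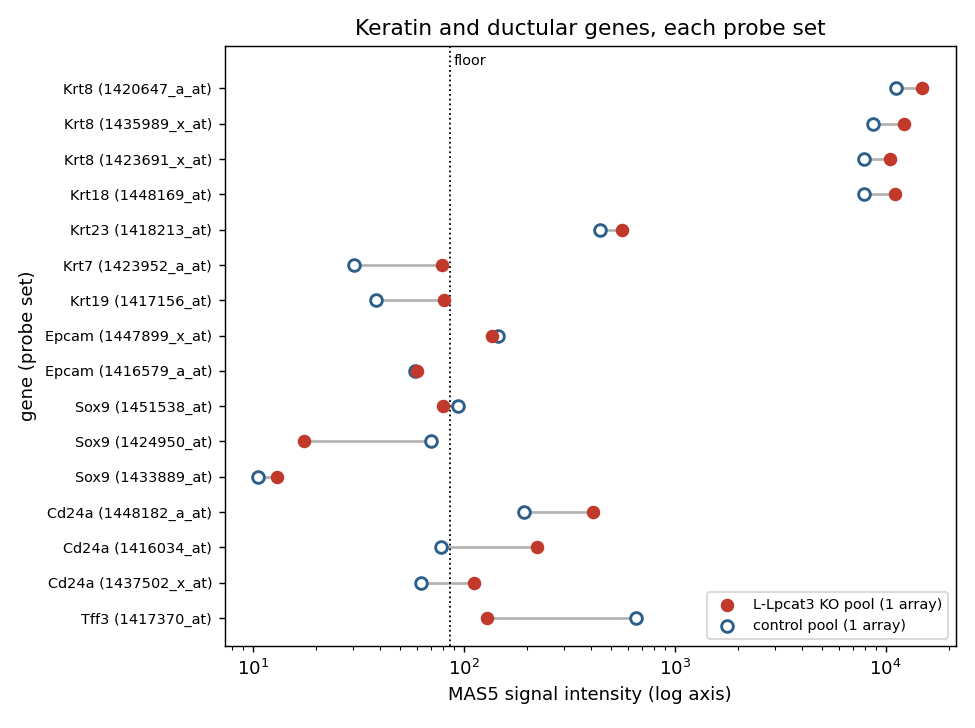
MAS5 signal intensity on a log axis for each of the 16 probe sets, with the L-Lpcat3 KO pool as filled red points, the control pool as open blue points and the floor of 86.6 as a dotted line; each point is 1 array and there are no error bars. Krt8 and Krt18 lie at the right end with L-Lpcat3 KO to the right of control, Tff3 shows the widest gap among the probe sets above the floor on both arrays, and the probe sets of Krt7 and Krt19 lie left of the floor.

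Krt8 and Krt18, the filament pair of the hepatocyte, were the brightest genes of the set. The leading Krt8 probe set read 14928 in L-Lpcat3 KO liver and 11182 in control liver, a 1.34-fold difference. A second read 12191 in L-Lpcat3 KO and 8753 in control liver, and the third read 10523 in L-Lpcat3 KO and 7903 in control liver. The log2 ratios of the 3 probe sets were therefore 0.42, 0.48 and 0.41, with a mean of 0.44 and an SD of 0.04. These probe sets detect the same transcript, and 2 of them are of the _x_at type, which can also match near-identical sequences such as processed copies of the gene, so they are not independent measurements. Krt18 read 11097 in L-Lpcat3 KO liver and 7913 in control liver on its single probe set, a 1.40-fold difference. Its log2 ratio of 0.49 lay 0.07 above that of Krt8, well within the error of a single probe set.

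Neither Krt8 nor Krt18 reached 2-fold, but both stood toward the upper end for genes of their brightness. Their log2 ratios of 0.42 and 0.49 were of the same order as the pooled probe set SD of 0.29. Among the 2458 measured genes in the brightest 20%, the SD of the log2 ratio was 0.30 and the median -0.06, and 0.81% were at least 2-fold higher. Krt8 stood at percentile 95.3 of these genes and Krt18 at percentile 97.0. Across the 10 alternative settings of normalization, floor and probe set choice, the log2 ratio of Krt8 ran from 0.41 to 0.55 and that of Krt18 from 0.48 to 0.62. Hepatocyte markers moved the other way: 12 of 14 measured markers were below 0, with a median of -0.14 and a range from -0.43 for the aminotransferase gene Tat to 0.05 for Alb, and their summed signal was 354600 in L-Lpcat3 KO liver and 389100 in control liver. In whole liver, fewer cells of a type and less RNA per cell cannot be told apart.

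The promoters of Krt8 and Krt18 are shown because the genes encode a filament pair and both read higher in L-Lpcat3 KO liver. Whether they are regulated together was not tested. The genes lie close together on the same chromosome, with 2 annotated non-keratin genes between them, and are read in opposite directions. Each sequence runs from 250 bases before to 50 bases after the annotated start of the gene, and is taken from RefSeq; 5 of the 9 genes had an entry. Capitals mark matches to any of 7 motifs searched on both strands, namely the TATA box TATAAA, the box CCAAT, the GC box GGGCGG, the AP-1 motif TGANTCA, the TEAD motif GGAATG, the RBPJ motif TGGGAA and the STAT5 motif TTCNNNGAA.
Krt8 (GRCm38.p6, chr15:102004293-102004592, minus strand): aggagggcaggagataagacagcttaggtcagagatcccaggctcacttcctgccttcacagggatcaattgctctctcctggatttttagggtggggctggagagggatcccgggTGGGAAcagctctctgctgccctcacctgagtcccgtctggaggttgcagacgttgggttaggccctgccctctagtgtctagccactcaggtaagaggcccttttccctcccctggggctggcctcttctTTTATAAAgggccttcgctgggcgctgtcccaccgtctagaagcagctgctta
Krt18 (GRCm38.p6, chr15:102027966-102028265, plus strand): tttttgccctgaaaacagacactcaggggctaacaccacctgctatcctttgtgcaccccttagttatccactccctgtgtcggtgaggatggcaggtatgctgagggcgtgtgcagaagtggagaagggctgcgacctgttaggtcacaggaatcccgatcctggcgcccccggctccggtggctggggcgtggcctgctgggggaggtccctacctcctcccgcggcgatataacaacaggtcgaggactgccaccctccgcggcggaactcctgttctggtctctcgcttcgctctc
The Krt8 window held a TATAAA on each strand, which overlap in a single palindromic stretch at the annotated start, and 1 TGGGAA, 134 bases before the start. The Krt18 window held none of the 7. Among 32851 mouse promoter windows of this length, 13.6% held TATAAA and 25.6% held TGGGAA. GC content was 58.0% for Krt8 and 61.3% for Krt18.

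Krt23, a type I keratin that is scarce in normal liver, read 565 in L-Lpcat3 KO liver and 442 in control liver. This 1.28-fold difference, a log2 ratio of 0.35, is close to the probe set SD of 0.29, and it lay at percentile 84.1 among genes of like brightness. The alternatives gave 0.32 to 0.49.

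Krt7 and Krt19, the keratins that tell duct cells from hepatocytes, did not count as measured at the main floor. Krt7 read 79.0 in L-Lpcat3 KO liver and 30.1 in control liver, and Krt19 read 80.6 in L-Lpcat3 KO liver and 38.6 in control liver. Both L-Lpcat3 KO values were thus just under the floor, and both control values were far under it. Taken as deposited, the ratios would be 2.62 and 2.09. Of 14098 probe sets under the floor on both arrays, 26.3% were past 2-fold upward in L-Lpcat3 KO liver and 16.5% past 2-fold downward. That group also holds probe sets dimmer than those of Krt7 and Krt19. With the floor at the 25th percentile, 25.5, both genes counted as measured, with log2 ratios of 1.39 and 1.06. In that setting 1132 of 16117 measured genes were at least 2-fold higher. At the main floor no difference in either duct keratin could be called.

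The other keratins on the array gave no further differences of 2-fold. Of 48 keratin genes with a probe set, 14 were measured, Krt8, Krt18 and Krt23 among them, and 0 of the 14 differed by 2-fold. The 11 measured genes outside the set had log2 ratios from -0.45 or lower (Krt31) to 0.64 with a median of 0.12. Highest of these was Krt5, a basal cell keratin, with 152 in L-Lpcat3 KO liver and 97.3 in control liver. The remaining 32 were under the floor on both arrays, most of them keratins of epidermis and hair, and as deposited 10 of them were past 2-fold upward and 3 downward.

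**Figure D2:**
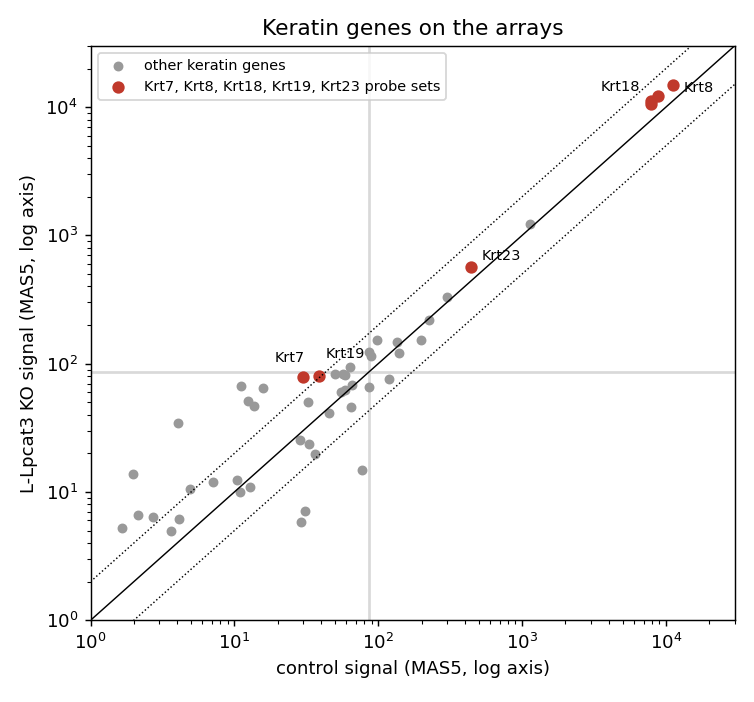
Signal of each keratin gene in L-Lpcat3 KO liver (y axis) against control liver (x axis), both log axes, with the line of equality, dotted lines at 2-fold and grey lines at the floor; red points are the probe sets of Krt7, Krt8, Krt18, Krt19 and Krt23, and grey points are the brightest probe set of each other keratin gene. Krt8, Krt18 and Krt23 lie just above equality, and every point beyond 2-fold is under the floor on both arrays.

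Vim, which encodes the intermediate filament of mesenchymal cells and leukocytes, differed by more than any measured keratin. It read 1720 in L-Lpcat3 KO liver and 772 in control liver, a 2.23-fold difference, and its other probe sets gave log2 ratios of 1.06 to 1.15. Of 7 measured genes for filaments other than keratins, Vim was the only member at 2-fold, and their median was 0.43. The genes that anchor keratin filaments were flat by comparison. Of 9 measured cytolinker and desmosome genes 0 reached 2-fold in either direction, the median was -0.12, and the largest ratio was that of the desmosomal cadherin Dsg2, at 5673 in L-Lpcat3 KO and 7733 in control liver (-0.45). Hspb1, a small heat shock protein that binds intermediate filaments, read 3724 in L-Lpcat3 KO liver and 1815 in control liver, 2.05-fold, with 0.86 on the log2 scale for its other probe set. It was the 1 gene of 5 measured at 2-fold among components of Mallory-Denk bodies, the keratin aggregates of injured hepatocytes; Sqstm1, the ubiquitin-binding scaffold of these bodies, was at 0.20 and the list median at 0.22.

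Epcam, the epithelial adhesion molecule of ducts and progenitor cells, was nearly equal in both livers. Its brighter probe set read 136 in L-Lpcat3 KO liver and 145 in control liver, a log2 ratio of -0.09, which became 0.05 relative to hepatocyte markers. That probe set is of the _x_at type, and the other, which is not, was under the floor with 60.4 in L-Lpcat3 KO and 58.6 in control liver.

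Sox9, the transcription factor of the biliary lineage, was at the edge of detection. On the probe set that stands for the gene it read 79.9 in L-Lpcat3 KO liver and 94.2 in control liver, at least 1.09-fold lower, a log2 bound of -0.12 that became 0.01 relative to hepatocyte markers. A second probe set read 17.6 in L-Lpcat3 KO and 70.1 in control liver, and the third 13.0 in L-Lpcat3 KO and 10.6 in control liver. Both were under the floor on both arrays and give no direction, so that for Sox9 there is only the bound of the first, whose control value was just above the floor.

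**Figure D3:**
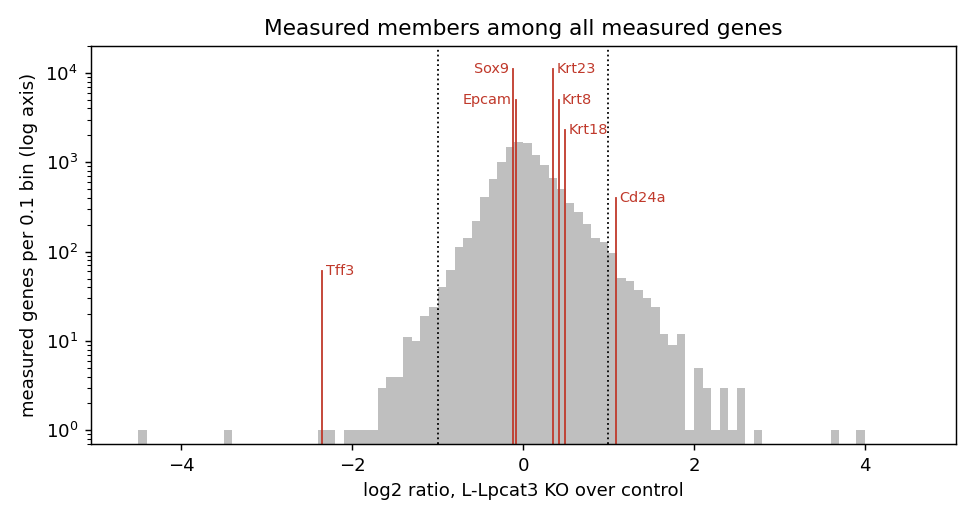
Grey bars count the 12290 measured genes (y axis, log scale) in bins of the log2 ratio, L-Lpcat3 KO over control (x axis), and red lines mark the 7 measured genes of the set; dotted lines are at 2-fold. Tff3 at -2.35 lies in the sparse left tail, Cd24a at 1.09 lies just past 2-fold, and the other 5 lie between -0.12, a bound for Sox9, and 0.49.

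Cd24a, a small glycosylphosphatidylinositol-anchored sialoglycoprotein of progenitor cells, duct cells and developing B cells, was the only gene of the set at least 2-fold higher. Its leading probe set read 412 in L-Lpcat3 KO liver and 194 in control liver, a 2.12-fold difference or 1.09 on the log2 scale. A second probe set read 223 in L-Lpcat3 KO and 78.5 in control liver, at least 2.57-fold higher. The third, of the _x_at type, read 112 in L-Lpcat3 KO and 62.9 in control liver, at least 1.29-fold higher. All 3 probe sets were thus higher in L-Lpcat3 KO liver, but the 2-fold call rests on which is used, since their mean log2 ratio was 0.94 with the bounds as they stand. Among all measured genes Cd24a ranked 248 from the top. It stood at percentile 96.0 for genes of like brightness, a range in which 5.53% of genes were at least 2-fold higher.

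Markers of B cells were also higher in L-Lpcat3 KO liver. Of 7 measured B cell markers 6 were at least 2-fold higher, with a median log2 ratio of at least 1.61. In 4 of the 7 the control value was under the floor. The median was 1.23 with the mean of probe sets, and 1.29 over 8 genes with the pseudocount of 50. The signal summed over the 8 listed genes with a probe set was 5010 in L-Lpcat3 KO liver and 1104 in control liver. Ighm, the heavy chain of IgM, read 2975 in L-Lpcat3 KO and 518 in control liver (its other probe sets ran from at least 1.03 to 2.58), and Jchain, which joins IgM pentamers, read 721 in L-Lpcat3 KO and 188 in control liver. The B cell surface genes Ms4a1 and Cd79b were at least 4.49-fold and at least 3.06-fold higher, with at least 0.30 on the log2 scale for the other probe set of Ms4a1. The B cell transcription factor gene Pax5 was under the floor on both arrays. Neutrophils and erythroid cells also carry Cd24. Of 5 measured neutrophil markers 1 was at least 2-fold higher, S100a8 at 185 in L-Lpcat3 KO and 84.8 in control liver. The median over the 5 was at least 0.33. The signal summed over all 7 neutrophil markers with a probe set was 822 in L-Lpcat3 KO and 615 in control liver. Of 4 erythroid markers with a probe set 2 were measured, the anion exchanger gene Slc4a1 (at least 1.90-fold higher) and the heme synthesis gene Alas2 (-0.60). The part of these cells in the Cd24a signal was not tested.

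Tff3, a secreted trefoil peptide of mucosal epithelia that is also made by bile duct cells, was the gene of the set that differed most. It read 129 in L-Lpcat3 KO liver and 658 in control liver, 19.6% of the control signal, on its single probe set. The log2 ratio of -2.35 is 5.11-fold and was the 3rd lowest of the 12290 measured genes. Both values lay above the floor, and no gene in its 20% band of brightness was lower. The ratio ran from -2.41 to -1.99 under every alternative but the floor at the 75th percentile, which lies above the L-Lpcat3 KO value and gave -0.70 as a bound. Since each array is a pool of 5 mice, the signal of single mice behind the control value of 658 is not known.

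The few other trefoil and goblet cell genes examined gave no 2-fold difference where they were measured. Tff1, another trefoil gene, read 616 in L-Lpcat3 KO liver and 686 in control liver (-0.15), and Tff2 was under the floor on both arrays. Of the proposed trefoil receptors, the chemokine scavenger receptor gene Ackr3 read 157 in L-Lpcat3 KO and 99.4 in control liver (0.66), and Cxcr4 and Lingo2 were not measured. Markers of intestinal goblet cells, which make Tff3 in the gut, were under the floor on both arrays in 4 of 5 genes, and the other, the mucin gene Muc2, was at its edge with 87.7 in L-Lpcat3 KO and 61.8 in control liver. Their summed signal was 140 in L-Lpcat3 KO liver and 116 in control liver. Pancreatic acinar markers were also under the floor in 4 of 6, while Cela1 read 1327 in L-Lpcat3 KO and 2203 in control liver.

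Markers of cholangiocytes outside the set showed no difference of 2-fold on the probe sets that stand for them. Of the 12 listed, 9 had a probe set with a single gene symbol and 5 were measured, with a median log2 ratio of 0.04 and a range from -0.10 or lower for the tight junction gene Cldn4 to 0.42 for the tetraspanin gene Tspan8. Summed over the 9 genes with a probe set, the signal was 1163 in L-Lpcat3 KO and 1082 in control liver. The ciliary gene Pkhd1 read 243 in L-Lpcat3 KO and 200 in control liver, and the progenitor antigen Prom1 94.2 in L-Lpcat3 KO and 96.1 in control liver. Bicc1 was at 0.04, although its other probe sets gave 0.48 or more. The defining duct genes Cftr, Sctr, Muc1 and Cldn7 were under the floor on both arrays.

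Transcription factors of biliary fate were mostly above 0 without reaching 2-fold. Of 6 measured genes 5 were above 0, with a median of 0.32. Among the 5, Klf5 and Grhl2 were at least 0.14 with control values under the floor, and the other probe set of Grhl2 gave -0.19. Sox4, which acts with Sox9 in bile duct development, read 615 in L-Lpcat3 KO and 329 in control liver (0.90), but its other probe sets ran from -0.30 to 1.09. Elf3, an epithelial ETS factor, read 221 in L-Lpcat3 KO and 136 in control liver (0.70). Onecut2 was the exception, with 1364 in L-Lpcat3 KO and 1940 in control liver (-0.51), but its other probe sets ran from -0.10 to 0.16.

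In the Notch pathway, which directs hepatoblasts toward the duct fate, 0 of 8 measured genes reached 2-fold and the median was 0.42. That median was 0.21 with the mean of probe sets, and 0.07 over 5 genes with the floor at the 75th percentile. The target genes Hey1 and Hes1 were higher, Hey1 with 172 in L-Lpcat3 KO and 79.4 in control liver (at least 1.99-fold) and Hes1 with 530 in L-Lpcat3 KO and 328 in control liver (0.69). The ligand gene Dll4 read 138 in L-Lpcat3 KO and 53.9 in control liver (a log2 ratio of at least 0.68). The receptor gene Notch2 was at -0.37, and Notch1 at 0.49 with -0.53 on its other probe set. The ligand gene Jag1 was at 0.07, and its other probe sets ran from -0.36 to 0.48. Among YAP, its partners and targets, 2 of 7 measured genes were at least 2-fold higher. Ccn2, a matricellular target of YAP and of TGF-beta, read 912 in L-Lpcat3 KO and 307 in control liver (2.97-fold), and the DNA-binding partner Tead1 read 881 in L-Lpcat3 KO and 434 in control liver (2.03-fold). The target Axl read 510 in L-Lpcat3 KO and 279 in control liver (0.87), while Ccn1 and Amotl2 were at 0.05 and -0.50. Ankrd1 was under the floor on both arrays, and the list median was 0.31.

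Of 7 measured signals linked to ductular expansion 1 was 2-fold higher, the growth factor gene Hgf, with 231 in L-Lpcat3 KO and 108 in control liver, whose other probe set gave -0.21. Tnfrsf12a, the receptor for the progenitor mitogen TWEAK, read 511 in L-Lpcat3 KO and 289 in control liver (0.82, and 1.19 on its other probe set). The Hgf receptor gene Met was at -0.33, and the median of the list was 0.10.

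Other non-hepatocyte markers were higher in the same L-Lpcat3 KO pool. Of 10 macrophage markers 5 were at least 2-fold higher (median 1.03, summed signal 26590 in L-Lpcat3 KO and 12820 in control liver), among them C1qa at 2941 in L-Lpcat3 KO and 1011 in control liver and C1qb at 3597 in L-Lpcat3 KO and 1170 in control liver (1.62, with 0.73 to 1.13 on its other probe sets). Of 8 stellate cell markers 3 were 2-fold higher (median 0.57, summed signal 23400 in L-Lpcat3 KO and 14970 in control liver), led by Acta2 at 969 in L-Lpcat3 KO and 297 in control liver; these cells also express Vim, Ccn2 and Hgf. Mesothelial cells of the liver capsule, which contain Krt8, Krt18 and Krt19, had 3 of 6 markers measured, all higher in L-Lpcat3 KO liver: Upk3b by at least 1.76-fold, Upk1b by 1.59-fold and Gpm6a by at least 1.52-fold. The other probe sets of Upk1b ran from 0.11 to 0.86 on the log2 scale. Msln, Wt1 and Lrrn4 were under the floor on both arrays, and the signal summed over all 6 markers was 664 in L-Lpcat3 KO and 366 in control liver. The part of these cells in the keratin, Vim, Ccn2 and Hgf values was not tested.

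**Figure D4:**
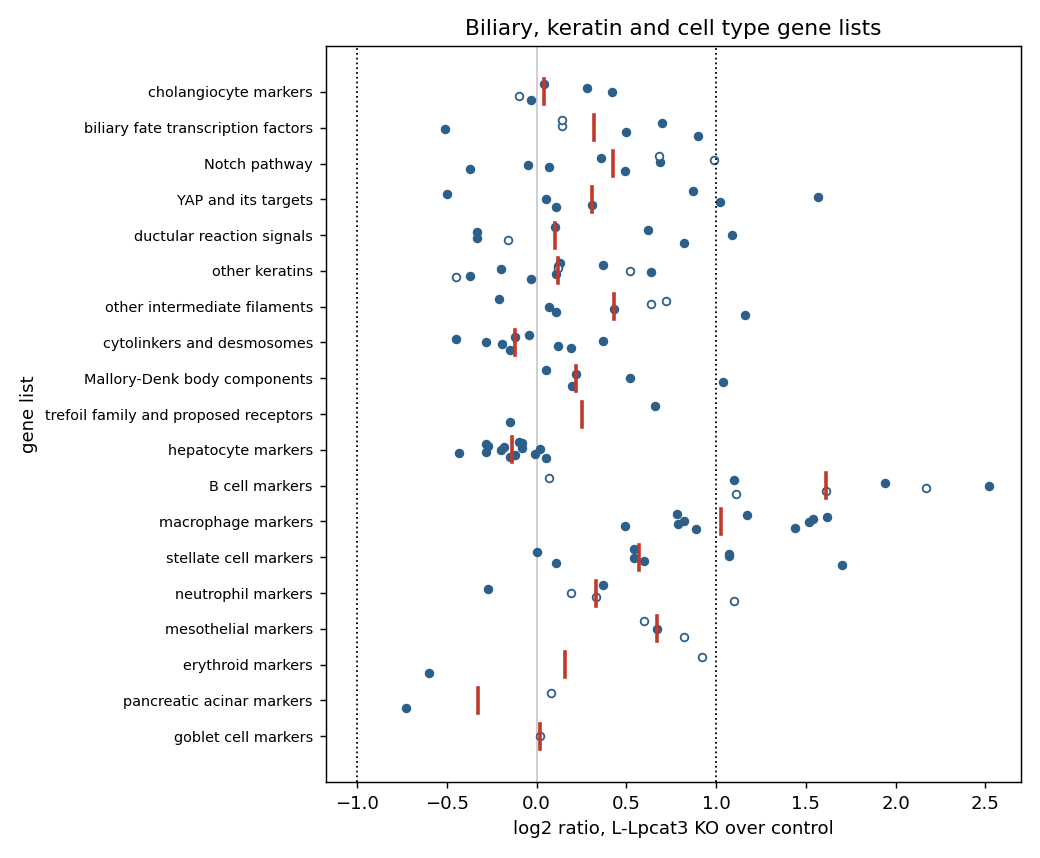
Rows are gene lists, and every dot gives the log2 ratio (L-Lpcat3 KO over control, x axis) of a gene that was measured, open where 1 side was under the floor; a red bar stands at the median of the row, and 2-fold is dotted. Cholangiocyte markers centre on 0.04 and hepatocyte markers on -0.14, whereas B cell markers centre on 1.61, a bound, and macrophage markers on 1.03.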

How the data were processed

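Liver RNA pooled from 5 mice per genotype was measured on 2 Affymetrix arrays, 1 per genotype. The authors scaled the arrays with MAS5 and analysed them with GenespringGX, versions not given in the sources used here; the deposited numbers are linear signal intensities. Such scaling to a common mean hides any shift shared by all transcripts. Detection calls were not used.

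Gene symbols came from the platform's probe table and were updated by gene identifier to RefSeq (GRCm38.p6). Of 45101 probe sets, 34958 had 1 symbol, 932 had several and 9211 were unnamed here; the 64 control probe sets were left out. Values were raised to the floor of 86.6, log2 ratios were taken as L-Lpcat3 KO over control, and the probe set with the highest mean log2 value stood for a gene. Calls were made at 2-fold. With 1 array per group no test was possible, and their number limits the precision. Ratio and counting steps were tested on simulated data.

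The genes, and the 18 lists beside the other keratins, were chosen with earlier results of these data known. Named are the 9 genes, Lpcat3 and, in each list, up to 4 genes at 2-fold or else the gene of largest ratio; other genes were named after their values were seen. Settings tried besides were quantile normalization, loess, median centring, ratios relative to hepatocyte markers, no floor, floors at the 25th and the 75th percentile, a pseudocount of 50, the mean of probe sets, leaving out _x_at and _s_at probe sets, and thresholds of 1.5-fold and 3-fold. Python 3.11.15, numpy 2.4.6, pandas 2.3.3, statsmodels 0.14.6 and matplotlib 3.10.9 were used.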

Additional observations from a re-analysis of the deposited data

How the results depend on the processing

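The count of keratin and ductular genes at least 2-fold higher was 1 of 7 measured in the values above. It was 3 of 9 with a floor at the 25th percentile or with no floor, where Krt7 and Krt19 join Cd24a. It was 0 with a floor at the 75th percentile, where 5 of the genes were measured. It was also 0 with the pseudocount of 50, with the mean of probe sets and at 3-fold. The count at least 2-fold lower, 1, became 0 with the floor at the 75th percentile. Relative to hepatocyte markers, whose median shifts all ratios by 0.14, 503 of all measured genes were at least 2-fold higher and 50 lower. With the floor at the 25th percentile these were 1132 and 479 of 16117 measured genes. With the floor at the 75th percentile they were 88 and 25 of 7452, and with no floor 2230 and 1183 of 18193. With the pseudocount of 50 they were 395 and 121 of 18193, and with the mean of probe sets 291 and 69 of 12290. At the main floor, with 12290 measured genes, they were 1115 and 471 at 1.5-fold, and 55 and 11 at 3-fold. The median log2 ratio of the measured genes of the set and the ratios of Krt8, Krt18, Krt23 and Lpcat3 moved by less than 0.29 under all 10 alternatives to which they apply. The ratio of Cd24a was at least 0.02 with the floor at the 75th percentile, and that of Tff3 was -1.99 with the pseudocount. Of 184 list medians under the alternatives 15 moved by more than 0.29. Signals near the floor limit what can be said of Krt7, Krt19, Epcam and Sox9. No paired analysis was possible because each genotype has 1 array.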
